A study of Homo sapiens with 18 samples.

Results

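The ZIC genes ZIC1, ZIC2, ZIC4 and ZIC5, the OTX genes OTX1 and OTX2, and the homeobox genes HESX1, LHX2 and SIX3 were taken by name from the gene count table, 9 of its 57133 genes. Levels were read by RNA-seq in undifferentiated human induced pluripotent stem cells of the established line PGP1, kept in mTeSR1 on Matrigel. The parental line is the WT group, and PCGF6-KO clone 1 and clone 2 are the same line after CRISPR-Cas9 had removed sequence of the first exon from both alleles of PCGF6, a subunit of the noncanonical Polycomb repressive complex PRC1.6. Each of the 3 groups had 2 libraries. Each clone grew from a single sorted cell. A difference of the clones from WT, or between the clones, can therefore belong to the clone as well as to the genotype.

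ZIC proteins are zinc finger transcription factors that act in neural plate, dorsal neural tube and neural crest formation, and ZIC2 is also transcribed in pluripotent stem cells. OTX proteins are homeodomain factors that set up the forebrain and midbrain, and OTX2 is also a factor of the epiblast and of primed pluripotent cells. HESX1 is a homeodomain repressor of the anterior neural plate and pituitary that works with TLE corepressors, LHX2 is a LIM homeodomain factor of the eye field and cortex, and SIX3 is a homeodomain factor of the eye field that restrains WNT signalling.

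The 6 libraries held between 15877396 and 18918609 counts, so 1 count was worth 0.0523 to 0.0623 CPM (counts scaled to library size). PCGF6 had 268 and 300 counts (WT), 99 and 103 (clone 1) and 187 and 159 (clone 2), and it was lower in PCGF6-KO cells (log2 fold change −1.15, SE 0.27, adjusted p = 0.00914, edgeR's quasi-likelihood test), a call that was lost without WT replicate 1 (adjusted p = 0.0511) or WT replicate 2 (adjusted p = 0.0763). Against WT, PCGF6 was called lower in clone 1 alone (−1.67, SE 0.14, adjusted p = 1.03e-10, edgeR) and in clone 2 alone (−0.77, SE 0.13, adjusted p = 1.21e-05, edgeR). Reads were not split by exon, so the deleted stretch itself was not read. The pluripotency factors POU5F1 (log2 fold change 0.01, adjusted p = 0.907 by the same edgeR test) and NANOG (0.40, adjusted p = 0.0139) did not pass the call. A gene was called where edgeR's quasi-likelihood test gave a Benjamini-Hochberg adjusted p under 0.05 and the log2 fold change passed 0.6 in either direction. Nothing in the labels says that the 2 libraries of a group came from separate cultures, so p-values measure only the spread between these libraries. PCGF6-KO values pool the 4 libraries of 2 clones, so their SD (n = 4) holds spread both within and between clones. The test of PCGF6-KO against WT treated these 4 libraries as separate replicates.

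In PCGF6-KO cells ZIC2, ZIC5, OTX1, OTX2 and HESX1 fell and ZIC1 and LHX2 rose. ZIC4 and SIX3 had too few counts to be tested. Of the 7 genes tested, 2 were called higher and 5 lower with the 4 PCGF6-KO libraries against the 2 WT libraries, where 23.6% of the 17672 genes tested were called (14.9% higher and 8.7% lower). The CPM of the WT and PCGF6-KO libraries did not overlap for 7 of the 7, as they did not for 57.1% of all genes tested. The same 2 genes were called higher and the same 5 lower in clone 1 alone, where 24.8% of all genes were called (16% higher and 8.8% lower), and in clone 2 alone, where 29.4% were called (16.9% higher and 12.5% lower). The clones share the WT libraries. ZIC1 and LHX2 were under 10 counts in both WT libraries and passed the filter on low counts through their level in PCGF6-KO cells. In bulk RNA, fewer cells that express a gene and less RNA of it per cell cannot be told apart.

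**Figure D1:**
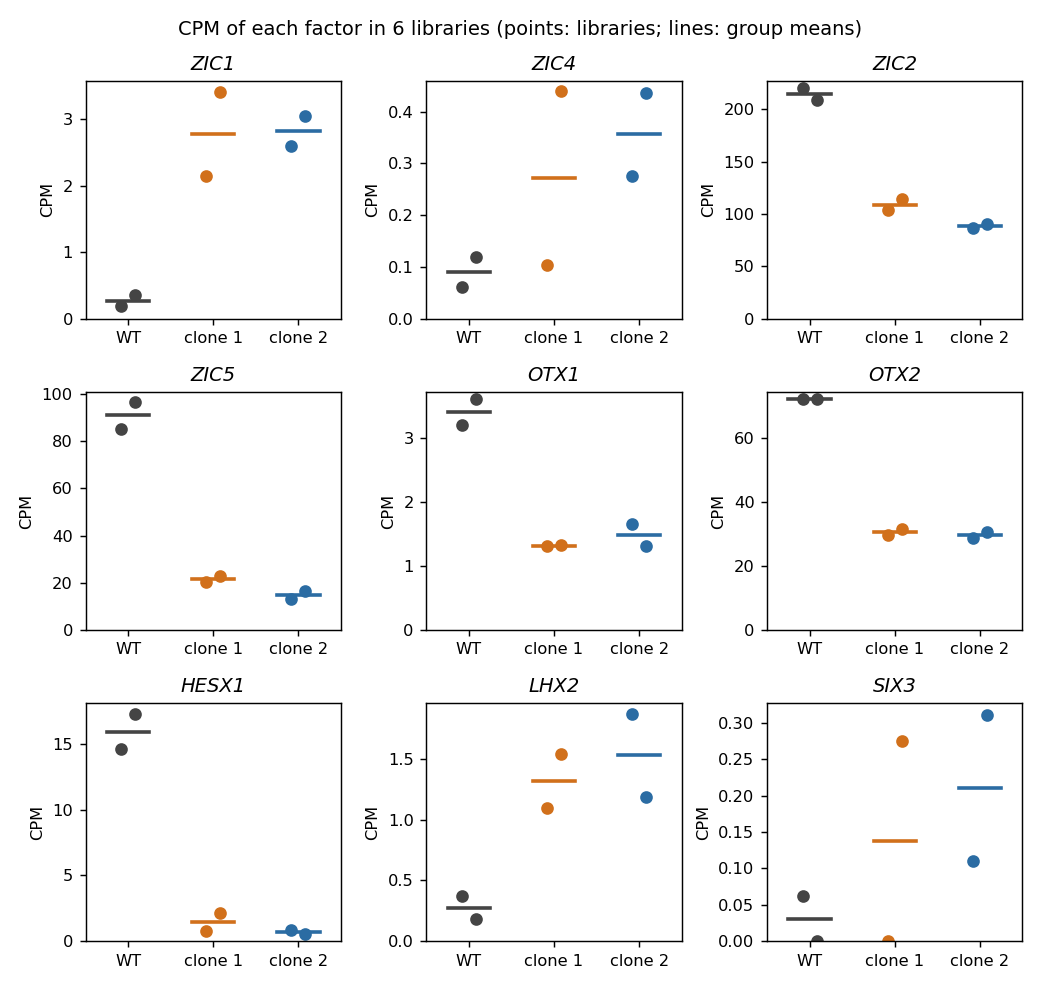
CPM (counts scaled to library size, linear axis from 0, own scale in each panel) of the 9 genes in each library, with points for the libraries and lines for the group means (n = 2 each). The WT points lie above all PCGF6-KO points for ZIC2, ZIC5, OTX1, OTX2 and HESX1 and under them for ZIC1 and LHX2, whereas ZIC4 and SIX3 overlap.

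ZIC2, the ZIC factor whose loss disturbs forebrain midline formation, was the most abundant of the 9 genes. It lies on chromosome 13 at 99981784 to 99986765 (GRCh38, plus strand). Its counts were 3588 and 3482 (WT), 1983 and 2079 (clone 1) and 1577 and 1452 (clone 2). Both WT libraries were above all 4 PCGF6-KO libraries, and both clone 1 libraries were above both clone 2 libraries. The level was 214.5 ± 8.27 CPM (SD, n = 2) in WT and 98.9 ± 12.6 CPM (SD, n = 4) in PCGF6-KO cells, a log2 fold change of −1.12 (SE 0.10, adjusted p = 5.26e-05, edgeR's quasi-likelihood test).

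ZIC5, a ZIC factor of the neural crest and dorsal neural tube, lies beside ZIC2 at 99962964 to 99971767 on the minus strand. The genes point away from each other, with 10017 bases between their start sites and no overlap. ZIC5 counts were 1391 and 1614 (WT), 386 and 414 (clone 1) and 239 and 261 (clone 2). The order of the groups was that of ZIC2, with no overlap. ZIC5 fell from 91.1 ± 7.99 CPM (SD, n = 2) to 18.1 ± 4.23 CPM (SD, n = 4), a log2 fold change of −2.33 (SE 0.17, adjusted p = 1.33e-05 by the edgeR test). CLYBL, the gene next to ZIC5 on its other side at 53504 bases, was also lower (log2 fold change −1.20, adjusted p = 0.000613, edgeR).

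ZIC1, known for its part in cerebellar and dorsal neural development, lies on chromosome 3 at 147393422 to 147510293 (plus strand). It had 3 and 6 counts (WT), 41 and 62 (clone 1) and 47 and 49 (clone 2). All 4 PCGF6-KO libraries were above both WT libraries, and the clones overlapped. The log2 fold change was 3.32 (SE 0.40, adjusted p = 0.000233, edgeR's quasi-likelihood test). In counts per read sequenced PCGF6-KO cells had 10.2 times the WT level, with an exact 95% interval of 5.27 to 22.6 that covers counting error only. The log2 fold change was 2.93 without WT replicate 1 and 3.87 without WT replicate 2.

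ZIC4 is on the opposite strand of the same chromosome 3 region, at 147386046 to 147406809, and its annotated span shares 13388 bases with that of ZIC1. The strand setting of the counting is not given in the sources used here, so reads of ZIC1 and ZIC4 in the shared stretch may not be told apart. ZIC4 had 1 and 2 counts (WT), 2 and 8 (clone 1) and 5 and 7 (clone 2). The libraries overlapped. The sums were 3 counts in WT and 22 in PCGF6-KO cells, a ratio per read of 3.38 with an exact 95% interval of 1.02 to 17.7 for counting error alone. Without the filter on low counts, edgeR gave ZIC4 a log2 fold change of 1.69 (SE 0.90, adjusted p = 0.238).

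The promoter windows of ZIC1 and HESX1 are shown because they were the only ones, of the 8 of the 9 genes that had an entry, to hold either motif searched. The windows run from 250 bases before to 50 bases after the gene's start (RefSeq, GRCh38.p14) and are written 5′ to 3′ on the gene's strand. The motifs were CACGTG, the E-box that the MAX and MGA subunits of PRC1.6 can bind, and GCGGGAA, a site of the E2F family to which its subunit E2F6 belongs, each searched on both strands. Capitals mark the match.
ZIC1, chr3:147409115-147409414, plus strand: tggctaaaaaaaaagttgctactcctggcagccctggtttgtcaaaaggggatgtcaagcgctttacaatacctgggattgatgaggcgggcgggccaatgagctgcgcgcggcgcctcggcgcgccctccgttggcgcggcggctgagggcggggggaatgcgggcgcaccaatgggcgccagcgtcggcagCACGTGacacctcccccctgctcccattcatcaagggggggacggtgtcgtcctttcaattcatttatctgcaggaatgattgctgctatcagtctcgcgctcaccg
HESX1, chr3:57227566-57227865, minus strand: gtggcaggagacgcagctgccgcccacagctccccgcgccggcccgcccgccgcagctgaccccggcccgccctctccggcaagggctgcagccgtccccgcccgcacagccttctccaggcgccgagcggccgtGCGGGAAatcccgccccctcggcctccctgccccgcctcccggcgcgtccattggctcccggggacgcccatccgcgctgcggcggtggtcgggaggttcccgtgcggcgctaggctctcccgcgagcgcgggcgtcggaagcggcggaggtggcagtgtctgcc
The RefSeq start of ZIC1 lies inside the GENCODE span given above. The match is at bases 194 to 199 of the ZIC1 window and at bases 136 to 142 of the HESX1 window. The HESX1 window runs into APPL1 on the opposite strand, and its match lies across the annotated start of APPL1 at 57227726, so it cannot be assigned to HESX1 alone. CACGTG was in 2030 of 27305 promoter windows (7.43%), and GCGGGAA in 1792 (6.56%). A match is a description of the letters, and binding at these windows was not analysed here. The 8 windows differed in base composition, from 49.7% G and C in OTX2 to 78.7% in HESX1, where the median of all windows was 58.3%.

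Levels of different genes were set side by side per length, as RPKM (CPM divided by gene length in kilobases). The sum over ZIC1, ZIC2, ZIC4 and ZIC5 was 84.5 ± 0.75 RPKM in WT, 38.0 ± 2.83 in clone 1 and 30.4 ± 1.29 in clone 2 (SD, n = 2 each), with no overlap between the groups. ZIC2 made up most of that sum in every library, 76.7 ± 2.27% in WT, 86.7 ± 0.467% in clone 1 and 88.1 ± 1.24% in clone 2. ZIC5 made up 23.2 ± 2.24% in WT, 12.2 ± 0.134% in clone 1 and 10.4 ± 1.11% in clone 2, so its share was lower in all 4 PCGF6-KO libraries. ZIC1, though called higher, had a small share, at 0.0474 ± 0.022% in WT, 1.06 ± 0.267% in clone 1 and 1.36 ± 0.0997% in clone 2, and ZIC4 stayed under that of ZIC1 in every library.

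**Figure D2:**
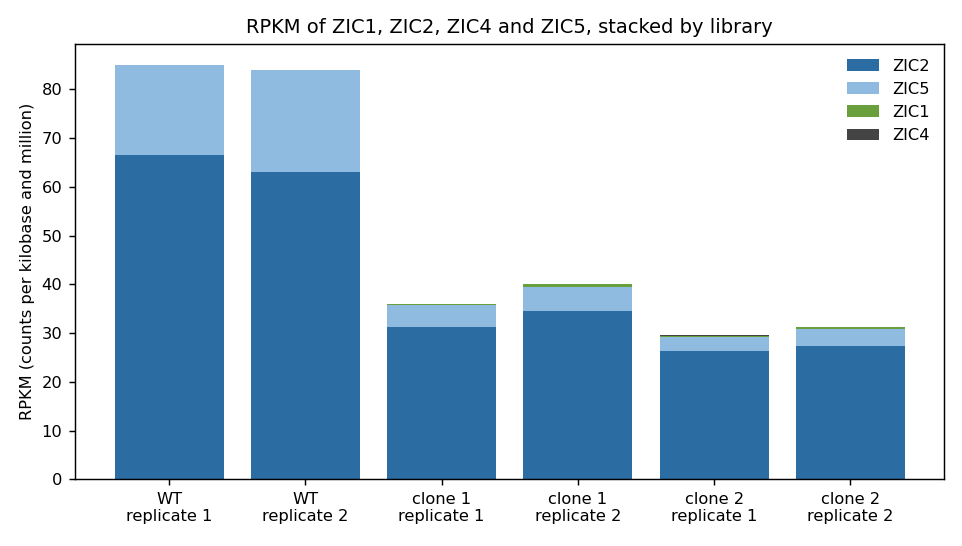
RPKM (CPM per kilobase of gene, linear axis from 0) of ZIC1, ZIC2, ZIC4 and ZIC5 stacked for each of the 6 libraries. The ZIC2 and ZIC5 segments are smaller in all 4 PCGF6-KO libraries, and ZIC1 and ZIC4 are thin or not visible.

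OTX2 lies on chromosome 14 at 56799905 to 56816693 (minus strand). It had 1173 and 1203 counts (WT), 565 and 574 (clone 1) and 522 and 490 (clone 2). The WT libraries were above all PCGF6-KO libraries, and the clones overlapped in CPM. The level was 72.1 ± 0.0369 CPM (SD, n = 2) in WT and 30.1 ± 1.21 CPM (SD, n = 4) in PCGF6-KO cells, a log2 fold change of −1.26 (SE 0.070, adjusted p = 2.52e-06, edgeR's quasi-likelihood test). OTX2-AS1, which overlaps 3511 bases of the OTX2 span on the other strand, had at most 1 count in any library. RN7SL461P, the neighbour at 7681 bases, had 0 counts in every library. TMEM260, the neighbour on the other side at 149298 bases, was higher (log2 fold change 0.71, adjusted p = 0.00178, edgeR).

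OTX1, the OTX factor with a role in the cortex, is on chromosome 2 at 63050057 to 63057836 (plus strand) and was much rarer. It had 52 and 60 counts (WT), 25 and 24 (clone 1) and 30 and 21 (clone 2), again with both WT libraries above all others. Its log2 fold change of −1.28 (SE 0.22, adjusted p = 0.0021, edgeR's quasi-likelihood test) was close to that of OTX2. EHBP1, 3569 bases away, was at −0.59 on the log2 scale (adjusted p = 0.000481, edgeR), just short of the fold limit. OTX2 made up 96.9 ± 0.255% of the RPKM of the pair in WT, 97.2 ± 0.113% in clone 1 and 96.7 ± 0.658% in clone 2 (SD, n = 2 each), while the sum of the pair was 22.7 ± 0.0707 RPKM in WT, 9.61 ± 0.44 in clone 1 and 9.37 ± 0.327 in clone 2.

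HESX1, whose promoter window is printed above, had the largest fall of the 9 genes. It lies on chromosome 3 at 57197838 to 57227606 (minus strand). Its counts were 238 and 288 (WT), 15 and 38 (clone 1) and 15 and 8 (clone 2). All PCGF6-KO libraries were far under both WT libraries, and clone 1 replicate 2 was the highest of the 4. The level was 15.9 ± 1.87 CPM (SD, n = 2) in WT and 1.05 ± 0.709 CPM (SD, n = 4) in PCGF6-KO cells (log2 fold change −3.90, SE 0.37, adjusted p = 6.02e-05, edgeR's quasi-likelihood test), and the log2 fold change was −4.46 without clone 1 replicate 2. APPL1, which starts close to HESX1 on the opposite strand and encodes an endosomal adaptor protein, had 1420 and 1547 counts (WT), 985 and 1135 (clone 1) and 911 and 909 (clone 2). It was also lower (log2 fold change −0.70, SE 0.094, adjusted p = 0.000435, edgeR). IL17RD, on the other side of HESX1, was not called (0.25, adjusted p = 0.055, edgeR).

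LHX2 is on chromosome 9 at 124001670 to 124033301 (plus strand). It had 6 and 3 counts (WT), 21 and 28 (clone 1) and 34 and 19 (clone 2). All 4 PCGF6-KO libraries were above both WT libraries, and the clones overlapped. The log2 fold change was 2.35 (SE 0.46, adjusted p = 0.00353, edgeR's quasi-likelihood test), and it was 2.94 without WT replicate 1 and 1.93 without WT replicate 2. The ratio of counts per read was 5.23, with an exact 95% interval of 2.65 to 11.8 for counting error only. Of its neighbours DENND1A was lower (log2 fold change −1.07, adjusted p = 8.84e-05, edgeR) and NEK6 higher (0.87, adjusted p = 0.00369, edgeR).

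SIX3 is on chromosome 2 at 44941702 to 44946071 (plus strand). It had 1 and 0 counts (WT), 0 and 5 (clone 1) and 2 and 5 (clone 2), so its groups overlapped. The sums of 1 and 12 counts gave a ratio per read of 5.54 with an exact 95% interval of 0.819 to 237, so no difference was detectable at this depth. Without the filter on low counts, edgeR gave a log2 fold change of 2.24 (SE 1.43, adjusted p = 0.351). SIX2, its neighbour at 59110 bases, was higher (log2 fold change 1.26, adjusted p = 0.0182, edgeR).

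Against WT, each clone alone gave falls of a like order. The log2 fold change of HESX1 was −3.48 (SE 0.24) in clone 1 and −4.55 (SE 0.28) in clone 2, and the clone 1 value was −2.92 without clone 1 replicate 1 and −4.32 without clone 1 replicate 2. For ZIC5 the values were −2.09 (SE 0.098) and −2.63 (SE 0.10). ZIC2 was at −0.98 (SE 0.065) in clone 1 and −1.27 (SE 0.067) in clone 2, OTX2 at −1.24 (SE 0.083) and −1.28 (SE 0.084), and OTX1 at −1.37 (SE 0.28) and −1.19 (SE 0.28). The rises were 3.31 (SE 0.43) and 3.33 (SE 0.44) for ZIC1 and 2.24 (SE 0.52) and 2.47 (SE 0.51) for LHX2. The adjusted p of edgeR's quasi-likelihood test was 0.000867 or less for each of these values.

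**Figure D3:**
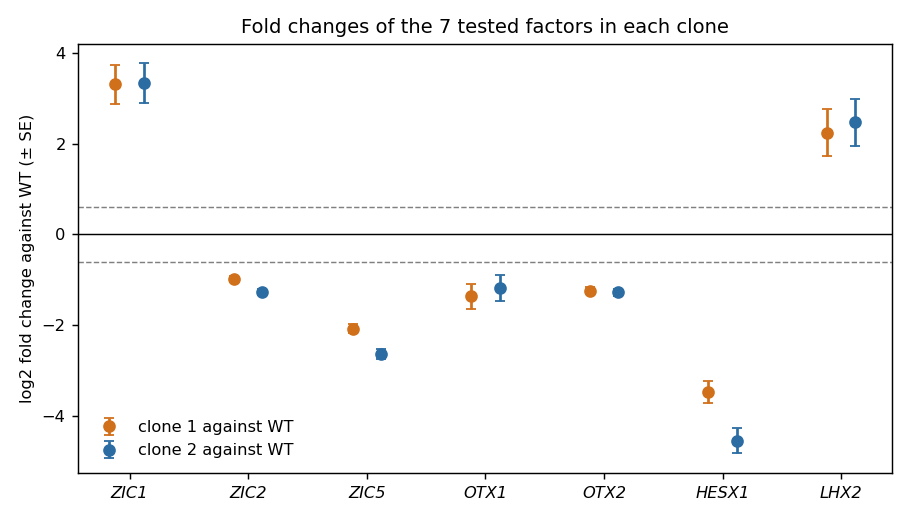
Log2 fold change against WT (± SE) of the 7 tested genes in clone 1 and clone 2, with dashed lines at the fold limit of the call. ZIC1 and LHX2 lie above the upper line and ZIC2, ZIC5, OTX1, OTX2 and HESX1 under the lower line in both clones, and the clones share the WT libraries.

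By level per length, the order in WT was ZIC2 (64.8 ± 2.5 RPKM), OTX2 (22.02 and 22.03 RPKM in its libraries), ZIC5 (19.6 ± 1.72), HESX1 (10.7 ± 1.25), OTX1 (0.702 ± 0.0588), LHX2 (0.103 ± 0.0503), ZIC1 (0.040 ± 0.0182), SIX3 (0.0122 ± 0.0172) and ZIC4 (0.0106 ± 0.00482; SD, n = 2 each). The last 2, at 1 to 3 counts summed over WT, were not distinguishable. In PCGF6-KO cells ZIC2 (29.9 ± 3.8 RPKM) and OTX2 (9.20 ± 0.37) still led, and ZIC5 was at 3.90 ± 0.913 RPKM (SD, n = 4). HESX1 (0.703 ± 0.475 RPKM), LHX2 (0.537 ± 0.134) and ZIC1 (0.411 ± 0.0809) then overlapped between libraries, with OTX1 at 0.289 ± 0.0354, SIX3 at 0.0691 ± 0.0577 and ZIC4 at 0.0367 ± 0.0186 (SD, n = 4 each). ZIC1 and LHX2, which rose, stayed under the means of ZIC2, OTX2 and ZIC5 in PCGF6-KO cells.

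The clones differed from each other in the size of some falls. Between clone 2 and clone 1, 0 of the 7 tested genes were called by edgeR's quasi-likelihood test, where 7.87% of all genes tested were called (3.73% higher and 4.14% lower), while 3 had an unadjusted p under 0.05 and DESeq2 called 0. ZIC5 was lower in clone 2 than in clone 1 by 0.55 on the log2 scale (log2 difference −0.55, SE 0.11, adjusted p = 0.000975 by edgeR), as was ZIC2 (−0.30, SE 0.067, adjusted p = 0.00218), both under the fold limit. The clone difference of HESX1 was −1.07 (SE 0.42, adjusted p = 0.0765 by edgeR), and it was −0.23 (adjusted p = 0.818) without clone 1 replicate 2 and −1.62 (adjusted p = 0.0037) without clone 1 replicate 1, a call that was also made without WT replicate 2 (−1.09) and under a replicate block (−1.06, adjusted p = 0.0389). ZIC5 was called without clone 1 replicate 1 (−0.63) or without clone 2 replicate 2 (−0.70). For OTX2 the difference was −0.04 (SE 0.089), for OTX1 0.18 (SE 0.32), for ZIC1 0.02 (SE 0.27) and for LHX2 0.23 (SE 0.37), with adjusted p of 0.729 or more by edgeR. PCGF6 transcript itself was higher in clone 2 than in clone 1 (log2 difference 0.90, adjusted p = 5.44e-05, edgeR).

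Over the 6 libraries the patterns of ZIC2 and OTX2 were the closest among the tested genes, by the Euclidean distance of centred log2 CPM (0.303), followed by OTX1 and OTX2 (0.369). ZIC2 and ZIC5 were at 1.46, ZIC1 and LHX2 at 1.58, and ZIC1 and HESX1, which moved in opposite directions, were farthest apart at 8.04. By the same distance, taken to all tested genes of a mean log2 CPM of at least 1, the nearest to OTX2 were MAP7 (0.107), SLC39A10 (0.114) and CD24 (0.118), and to ZIC2 IL1RAP (0.127), PIPOX (0.163) and CMAS (0.164). ZIC5 was nearest to GABRA3 (0.154), PPM1E (0.158) and NLGN3 (0.294), and OTX1 to C16orf45 (0.155), ZSCAN2 (0.232) and CTSK (0.239). HESX1 had no close match, with SYP at 0.696, RASGRP2 at 1.04 and CHRNB2 at 1.06. The rising genes were nearest to GLIS1 (0.426), SPAG1 (0.439) and CAMK2D (0.448) for ZIC1 and to AC135352.1 (0.441), WNT9A (0.472) and ARSI (0.475) for LHX2. These distances depend on the size of a change as well as on the order of the libraries, and describe 6 libraries that share 3 groups.

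Other genes of the neural plate and forebrain moved in both directions. Of 30 listed, 18 were tested, 9 of which were called higher and 4 lower (median log2 fold change 1.43, against 0 over all genes tested), and 9 of the 18 were under 10 counts in both WT libraries and so were tested through their level in PCGF6-KO cells. With at least 10 counts required in every library, 2 were called higher and 3 lower. SFRP1, a secreted WNT inhibitor, fell most, from 10494 and 12156 counts in WT to between 297 and 359 in PCGF6-KO cells (log2 fold change −5.27, adjusted p = 7.5e-09, edgeR). The forebrain factors EMX1 (log2 fold change −3.29) and FEZF1 (−3.20) fell as well. PAX3, a factor of the dorsal neural tube and somites, had 2 and 0 counts in WT and 204 to 298 in PCGF6-KO cells, and the log2 fold changes of DLX5 (5.56) and EMX2 (5.38) were also large and rested on at most 3 counts in a WT library. CDH2 was called higher, from 947 and 1121 counts in WT to between 6238 and 6714 in PCGF6-KO cells (log2 fold change 2.55). NES was also called higher, from 4508 and 5381 counts to between 9987 and 12859 (1.11). SOX2, a factor of both pluripotent and neural cells, was called lower (−0.69, adjusted p = 0.0178, edgeR). In clone 1 alone SOX2 was lower but short of the fold limit (−0.41, adjusted p = 1.47e-06, edgeR), so it was not called there. PAX6, with 2 and 9 counts in WT and 10 to 19 in PCGF6-KO cells, was not called (adjusted p = 0.0714, edgeR) but was in clone 1 alone, and SOX1, at 0 or 1 count in every library, was not tested.

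Of genes related to the 9, the LIM homeodomain genes LHX9 (4.17), LHX1 (2.64) and LHX6 (1.86), SIX2 (1.26) and the LIM cofactor LDB2 (0.75) rose, each by its log2 fold change. LHX8 (−1.89) and SIX4 (−0.69) fell, with 1 of these 2 calls lost without WT replicate 1 and 1 without WT replicate 2. GLI1, GLI2, GLI3, LDB1, LHX4 and SIX5 were not called, and CRX, LHX3 and SIX6 were not tested. All 13 genes of anterior signalling and TLE corepressors were tested, 6 called higher and 4 lower (median log2 fold change 0.47), or 4 and 2 with at least 10 counts required in every library. The secreted antagonists DKK1 (7.92), CER1 (3.40) and LEFTY2 (2.39) rose with GSC (5.53), a factor of the organizer. LEFTY1 did not rise with LEFTY2 (−0.34, adjusted p = 0.206, edgeR) and was called lower in clone 2 alone (−0.62, adjusted p = 0.000744, edgeR). The TLE genes split, with TLE3 (1.51) and TLE4 (0.84) higher. TLE2 (−2.83), TLE5, counted under its older symbol AES (−1.76), and TLE1 (−0.68) were lower. SHISA2, an inhibitor of WNT and FGF receptors, fell (−3.31).

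Markers of other cell types were read in the same libraries. The 16 caudal patterning genes listed were tested and called higher, but 10 of them were under 10 counts in both WT libraries and were tested through their level in PCGF6-KO cells, and with at least 10 counts required in every library 3 were called. Their summed level was 6.88 to 8.03 CPM in WT and 763.5 to 1007 CPM in PCGF6-KO cells. EVX1, HOXB2 and CDX1, of this list, were at 0 in both WT libraries and had 139 or more counts in every PCGF6-KO library. Of 14 mesendoderm genes listed 13 were tested and called higher, 7 of them under 10 counts in both WT libraries, and 5 were called with at least 10 counts required in every library. Their summed levels were 159.9 to 161.2 CPM in WT and 1183 to 1455 CPM in PCGF6-KO cells. TBXT, the defining mesoderm factor, which stands in both lists, had 0 and 12 counts in WT and between 3065 and 5515 in PCGF6-KO cells, and HAND1 and MSGN1 were at 0 in WT. Of 12 neural crest and placode genes 10 were called higher (6 with at least 10 counts required in every library), among them TFAP2B, MSX2 and MSX1, and 1, FOXD3, lower (summed level 131.7 to 135.6 CPM in WT and 249.6 to 375 CPM in PCGF6-KO cells). Of 12 pluripotent stem cell genes, 0 were called higher and 3 lower (ZFP42, DNMT3B and SOX2), with none at 0 in any library. ZFP42 was close to 0, with 304 and 329 counts in WT and 1 or 2 in each PCGF6-KO library (log2 fold change −7.51, adjusted p = 8.2e-08, edgeR). The part of these cell types in the levels of the ZIC, OTX and other anterior genes was not tested.

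**Figure D4:**
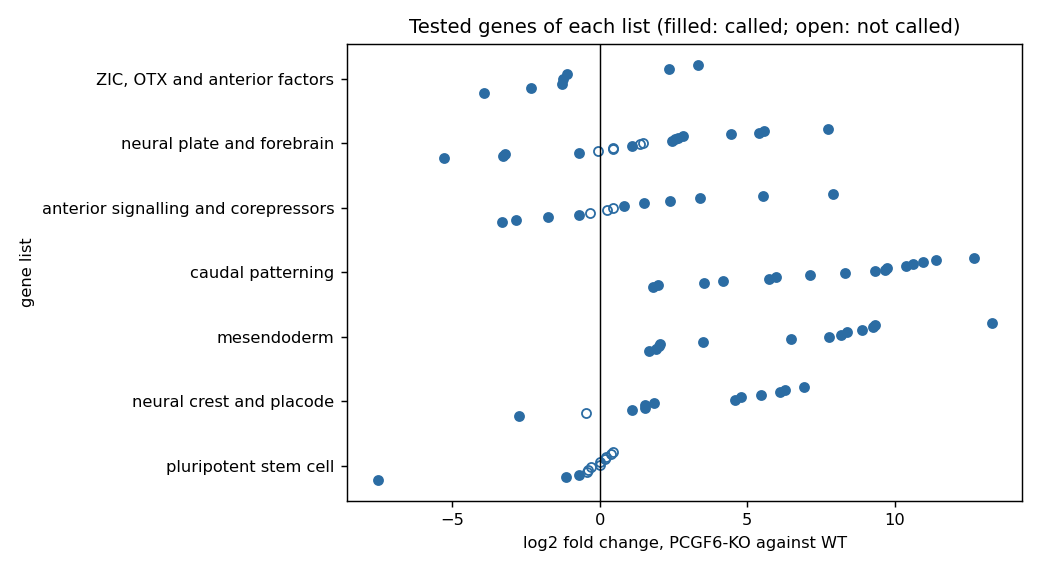
Log2 fold change (PCGF6-KO against WT) of each tested gene in the lists, filled where called. The ZIC, OTX and anterior genes lie on both sides of 0, as the neural plate and forebrain genes do, while the caudal and mesendoderm lists lie wholly above 0, and the values of genes with no WT count depend on the fitting's prior count.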

How the data were processed

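RNA-seq libraries of PGP1 cells (2 WT, 2 of each PCGF6-KO clone) were analysed, and the ChIP-seq samples of the series were not used here. The authors trimmed reads with Trim Galore 0.6.2, aligned them to GRCh38 with HISAT2 2.1.0 and deposited featureCounts counts per gene, the raw unit used here, with gene lengths. The strand setting and annotation release are not given in the sources used here. Groups came from the labels, and libraries of a group differed by more than counting error (chi-square per degree of freedom 2.53, 4.87 and 3.42 for WT, clone 1 and clone 2). Low genes were filtered with filterByExpr on the 2 genotypes, leaving 17672 of 57133. TMM normalization and edgeR 4.0.16's quasi-likelihood test (R 4.3.3) were applied, with 4 PCGF6-KO against 2 WT libraries as the main comparison and a 3-group fit for each clone, after the method was tested on simulated data. CPM used TMM-scaled library sizes, and RPKM divided CPM by the deposited length. Tried beside this were upper-quartile or RLE scaling, DESeq2 1.42.0, fits of the compared groups alone, the mean of the clones, other filters and call rules, a replicate block and leaving out each library. Gene positions were from GENCODE on GRCh38 and promoter windows from RefSeq (GRCh38.p14), with motifs searched as exact letters. Count ratios have exact 95% intervals, which cover counting error only.

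The 9 genes, their family relatives and 6 other lists (neural plate and forebrain, anterior signalling and corepressors, caudal patterning, mesendoderm, neural crest and placode, and pluripotent stem cell) were chosen with earlier results of these data known. Genes named were the 9, PCGF6, POU5F1, NANOG, SOX2, PAX6 and SOX1, family relatives, neighbours, the 3 nearest by pattern, and from each list the 3 largest increases and decreases called. The LEFTY and TLE genes, CDH2 and NES were named as well. Some items are not reported here.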

Additional observations from a re-analysis of the deposited data

Results flagged for a closer look

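OTX1 stood out for 1 of its 4 PCGF6-KO libraries. Clone 2 replicate 1 was at 1.66 CPM and the other 3 lay between 1.31 and 1.32 CPM, a gap of 0.963 of the group's range by Dixon's ratio. Each of the 9 genes was looked at in this way, and chance singles out about 1 in 20 groups. The high value rests on 30 counts against 21 to 25, and OTX1 stayed under both WT libraries.

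The falls of ZIC2 and ZIC5 differed in size between the clones, with a clone 2 minus clone 1 log2 difference of −0.30 for ZIC2 and −0.55 for ZIC5, which passed the adjusted p of edgeR's quasi-likelihood test but not the fold limit.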

How the results depend on the processing

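With 2 libraries a group and low counts of ZIC1, LHX2, ZIC4 and SIX3, small differences in these genes could not be resolved, and clones and genotype overlap in the design. The 7 tested genes kept their direction and call against WT in all alternatives that tested them. With at least 10 counts in every library required, 4 of them were left to test and were called (OTX1, OTX2, ZIC2 and ZIC5) in each comparison with WT. Counting by adjusted p alone, edgeR called 6556 genes for PCGF6-KO against WT, 8002 for clone 1, 8904 for clone 2 and 3442 between the clones. With the fold limit required as well, DESeq2 called 810 genes between the clones and edgeR 1390. Leaving out a library gave 3041 to 4251 genes called for PCGF6-KO against WT, 4068 to 4322 for clone 1, 4794 to 5192 for clone 2 and 1102 to 1419 between the clones. Between the clones, the number of the 7 genes called was 1 (HESX1) without a filter, 1 (HESX1) with the replicate block, 1 (HESX1) by a fold of 1.5 with unadjusted p, 2 (ZIC2 and ZIC5) by adjusted p alone, and 0 to 2 when a library was left out. Clone differences that were not called changed sign for ZIC1 (0 under upper-quartile scaling, −0.27 without clone 1 replicate 1, −0.09 without clone 2 replicate 2, up to 0.39 with another library left out), OTX1 (−0.01 without clone 2 replicate 1, up to 0.33) and LHX2 (−0.15 without clone 2 replicate 1, up to 0.51), and the cause was not tested. Of LHX8 and SIX4, 1 was called without WT replicate 1, without WT replicate 2 and under DESeq2. PCGF6 was not called without WT replicate 1 (adjusted p = 0.0511, edgeR) or without WT replicate 2 (0.0763, edgeR). Whether the replicate numbers pair the libraries was not settled, since the correlations of same-numbered deviations across 15104 genes were 0.0238, 0.0399 and 0.131 by Pearson's r and 0.112, 0.106 and 0.224 by Spearman's rho. With the replicate block 3876 genes were called for PCGF6-KO against WT, 4420 for clone 1, 5233 for clone 2 and 1484 between the clones, with the 7 genes called as before in the first 3.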
